A study of Mus musculus with 9 samples.

Results

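The genes described here encode the cornified envelope and its accessory proteins: the structural precursors, the enzymes that cross-link them, and the proteases, lipid enzymes, calcium sensors and secreted proteins of the outermost squamous cells. They were chosen by name: 33 genes were listed and every gene whose symbol starts with Lce and a digit was added. This gave 49 genes, 17 of them Lce genes, of the 35072 distinct gene or transcript names on the array. Each gene was represented by its probe with the highest mean. The RNA came from whole stomachs of newborn mice, 5 labelled C/EBPbeta KO (KO 1 to KO 5) and 4 labelled WT (WT 1 to WT 4), with 1 Agilent 1-colour array per mouse; values listed for a group follow the mouse numbers. The labels give no strain, sex or KO allele, and do not say whether the gene was removed in all cells; the source label calls the mice old, while the design text and the treatment protocol place them at birth. The labels name no treatment of either group.

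C/EBPβ is a basic leucine zipper transcription factor found in differentiating epithelial cells. The mouse stomach has a forestomach lined by a stratified squamous epithelium that cornifies like skin, and a glandular part that does not. During cornification the plasma membrane of a squamous cell is replaced by a protein shell, in which transglutaminases join loricrin, involucrin and small proline-rich and late cornified envelope proteins, and lipids are attached to its outer face. Many of these precursors are encoded side by side in the epidermal differentiation complex on mouse chromosome 3. The arrays measured RNA of the whole organ, so fewer squamous cells and less RNA per squamous cell cannot be told apart.

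A level here is the log2 processed signal of a probe relative to the 75th percentile of its array, so that a probe at 0 is as bright as that percentile and a step of 1 is a doubling. Differences between groups are KO minus WT on this log2 scale, with their standard errors (SE) from limma. Between 50.9% and 57.2% of probes were well above background on an array, and no spot was saturated. The probe for Cebpb, the targeted gene, read -2.74, -2.87, -1.58, -2.04 and -1.68 on the 5 KO arrays and 3.71, 3.21, 3.28 and 3.00 on the 4 WT arrays, a difference of -5.48 ± 0.30 (SE) with a limma adjusted p of 0.000123. The stomach's glandular markers (11 of 11 tested) had mean levels between 4.77 and 5.46 on KO and between 4.11 and 4.65 on WT arrays. All 11 were higher in KO, with a median difference of 0.65, against 0.0049 over all genes. The threshold, a limma adjusted p of 0.05, was passed by 1, against 0.203% of all genes. At an unadjusted p under 0.05, 6 were higher, against 5.05% of all genes. For 3 of them all KO arrays lay above all WT arrays, against 2.31% of all genes. Markers of squamous basal cells (11 of 11 tested, including Krt5, Krt14 and Trp63) had mean levels between 3.23 and 3.63 on KO and between 3.27 and 3.42 on WT arrays, with 0 past the threshold. Genes of hair follicles and pigment cells would mark adhering skin. Of 11 such genes, 2 were tested, Krt85 (2.83 to 4.12 over the 9 arrays) and Pmel (-3.40 to -1.92), with 0 past the threshold. Another 5 (Krt25, Krt27, Krt71, Tyrp1 and Mlana) were not well above background on any array. Krt28, Krt35, Krt86 and Dct were well above background on at least 1 array but did not pass the filter for testing. The part of adhering skin in the results was not tested. RNA of the Y-linked genes was low on KO 2, KO 4 and KO 5, with mean levels of -5.16, -6.47 and -7.06. On KO 1, KO 3 and the 4 WT arrays these means lay between -0.39 and 0.04. All low arrays were thus KO, and a fit with the Y-linked level cannot fully tell that level and the group apart. There were 2 slides that held both groups: slide 1 with KO 4, KO 5, WT 3 and WT 4, and slide 4 with KO 2, WT 1 and WT 2. For the cornified envelope genes 1 array of each group, WT 4 and KO 5, stood apart from the rest of its group, as described with the spread of the values, and counts are given with and without them.

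Of the 49 genes, 48 passed the filter (well above background on at least 4 of 9 arrays) and were tested. The fitted mean was lower in KO for 40 genes and higher for 8, where 49.1% of all 21722 genes tested were lower. The median difference was -0.72, and 0.0049 over all genes. With limma and Benjamini-Hochberg adjustment over all genes, 0 of 48 passed an adjusted p of 0.05, against 0.203% of all genes (44 genes). At an unadjusted p under 0.05, 5 were lower, against 3.68% of all genes, and 2 were higher, against 5.05%. All KO arrays lay below all WT arrays for 2 genes, Calm4 and Lce3b, against 1.08% of all genes, and 0 lay wholly above, against 2.31%. With median scaling or normexp background correction the groups overlapped for both genes. The median difference was -0.83 within slide 1 and -0.56 within slide 4, -0.21 without KO 5, and -0.14 with the level of the Y-linked genes as a covariate. Sprr4, a small proline-rich protein, was well above background on 3 of 9 arrays and was not tested.

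**Figure D1:**
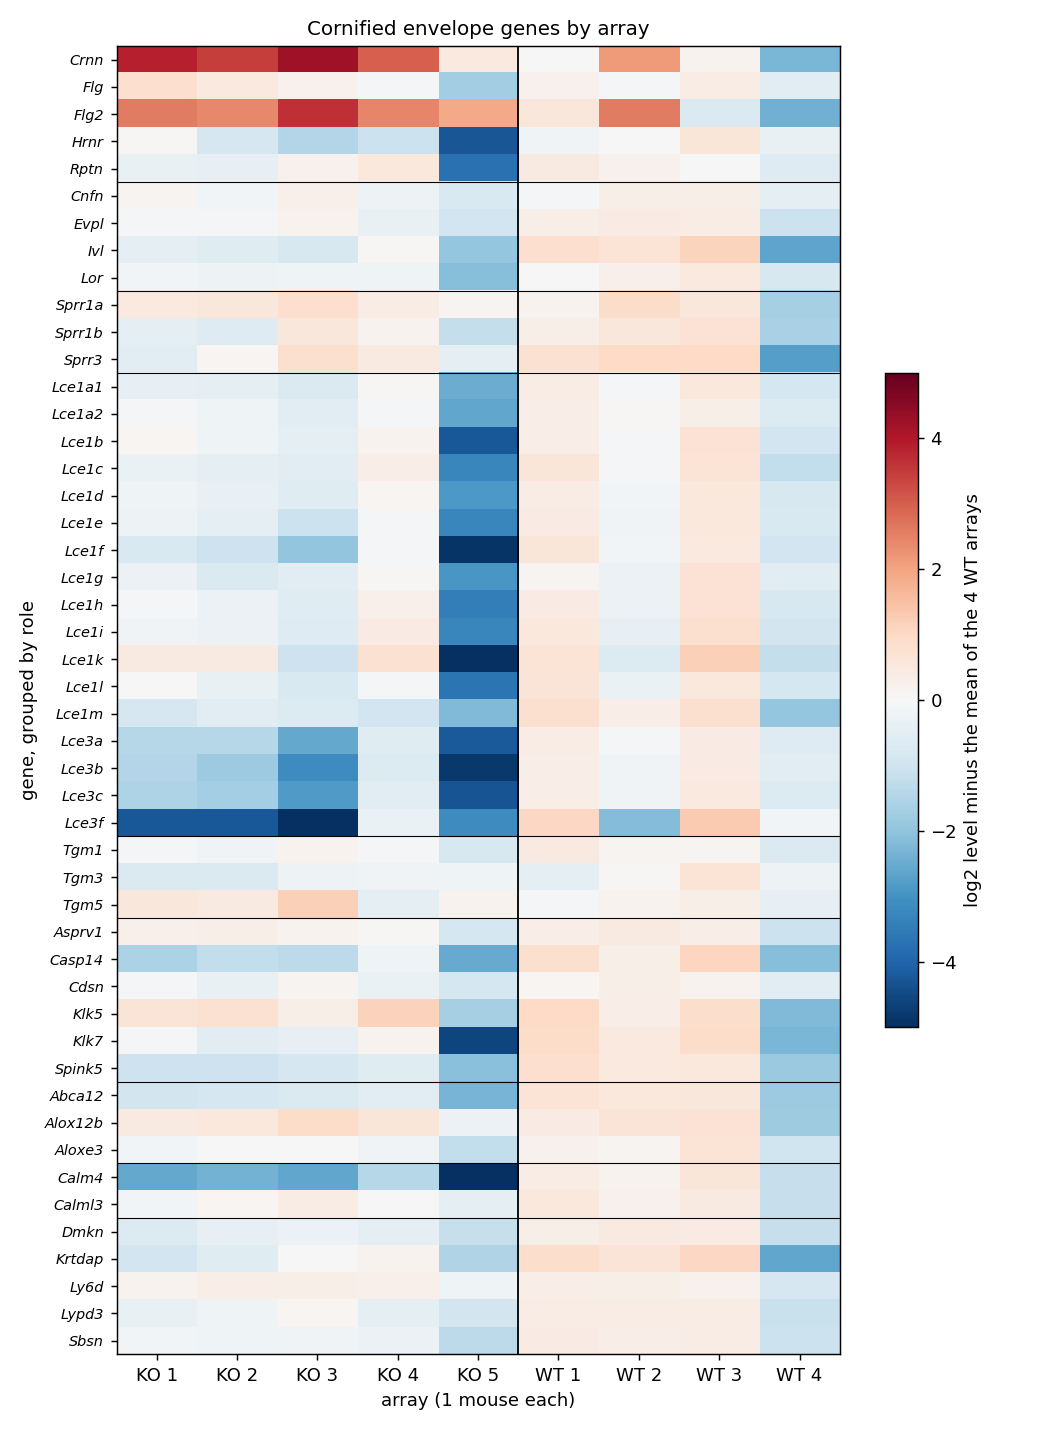
Log2 level of each of the 48 tested cornified envelope genes (rows, grouped by role) on each of the 9 arrays (columns), minus the mean of the 4 WT arrays for that gene; red is higher and blue lower. KO 5 forms the darkest blue column (median -2.10) and WT 4 a paler blue one (median -0.985). Crnn and Flg2 are red on KO arrays, and the Lce3 genes are blue on KO arrays.

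The late cornified envelope genes encode small cysteine-rich proteins that are added late to the inner face of the envelope. All 17 (13 Lce1 and 4 Lce3) had a lower fitted mean in KO, with a median difference of -0.96, and 0 passed the adjusted threshold. Without KO 5 that median was -0.37, and the median of the Lce1 genes moved from -0.87 to -0.27. The 4 Lce3 genes had the larger differences, from -3.41 to -2.05, and the 13 Lce1 genes ranged from -1.75 to -0.70; the difference between the subfamilies was not tested. The sign of all 17 was the same under each scaling and background correction tried; Lce1k turned positive without KO 5 (0.16), within slide 4 (0.46) and in the fit that includes the mean Y-linked level (0.031), and Lce1b in that fit (0.013). Neighbouring Lce genes share sequence and are not independent measurements.

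Lce3b (probe at chr3:92737872-92737931, mm9, as the array design gives it) read 5.68, 5.35, 4.01, 6.49 and 2.35 on the 5 KO arrays and 7.48, 6.99, 7.58 and 6.61 on the 4 WT arrays. Every KO array lay below every WT array, by a margin of 0.12 between KO 4 and WT 4. This separation was lost with median scaling and with normexp background correction. The group means were 4.78 ± 1.63 in KO against 7.16 ± 0.45 in WT (mean ± SD), a 5.23-fold lower signal in KO. The difference was -2.39 ± 0.72 (SE) (limma adjusted p = 0.379, exact two-sided permutation p = 0.0159).

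Lce3c (chr3:92749506-92749565) read 5.56, 5.41, 4.28, 6.56 and 2.80 on the 5 KO arrays and 7.45, 6.94, 7.62 and 6.45 on the 4 WT arrays. KO 4 lay between WT 4 and WT 2, and the other 4 KO arrays lay below all WT arrays. The difference was -2.19 ± 0.65 (SE) (limma adjusted p = 0.369).

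Lce3a (chr3:92729210-92729269) read 5.41, 5.39, 4.26, 6.23 and 2.63 on the 5 KO arrays and 7.18, 6.73, 7.23 and 6.17 on the 4 WT arrays. Here too KO 4 alone reached the WT range. The difference was -2.05 ± 0.63 (SE) (limma adjusted p = 0.385).

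The Lce3b and Lce3c values cannot be taken as separate measurements, because their probes match at 54 of 60 bases and each may also bind the other's RNA. The last 30 bases of both probes are shown because most of the differences lie there, with the 5 differing bases in capitals, as the array design gives the probe sequences:
Lce3b probe: ctgatcctggaCaCCcttctctgATtgtct
Lce3c probe: ctgatcctggaGaGTcttctctgCCtgtct
Among the Lce1 probes the closest pair, Lce1d and Lce1i, matched at 46 of 60 bases.

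Lce3f (chr3:92797108-92797167) had the most negative difference of all members. It read 0.82, 0.80, -0.09, 4.72 and 1.91 on the 5 KO arrays and 6.06, 2.87, 6.34 and 4.90 on the 4 WT arrays. KO 4 stood among the WT arrays and WT 2 stood 2.02 below the next WT array, so the groups overlapped. The difference was -3.41 ± 0.99 (SE), a 10.6-fold lower signal (limma adjusted p = 0.349), and its SD over the arrays after removing group means, 1.75, was among the 3 largest of the 48 genes. Within slide 1 the Lce3f difference was -2.30 and within slide 4 it was -3.67, while those of Lce3b were -2.67 and -1.89.

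The Lce1 genes differed from Lce3 in which arrays were low. Relative to the WT mean, the median of the 13 Lce1 genes was -0.20, -0.37, -0.65 and 0.07 on KO 1 to KO 4 and -3.28 on KO 5, while that of the 4 Lce3 genes was -1.52, -1.76, -2.99, -0.58 and -4.26 on KO 1 to KO 5. So on KO 1 to KO 4 the Lce3 genes lay farther below the WT mean than the Lce1 genes, and on KO 5 both were far below it. On WT 4 the medians were -0.87 for Lce1 and -0.60 for Lce3.

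Lce1m, at the far end of the cluster beyond the Lce3 genes, read 4.29, 4.61, 4.45, 4.14 and 2.90 on the 5 KO arrays and 5.93, 5.45, 5.91 and 3.18 on the 4 WT arrays. KO 1 to KO 4 lay 0.84 or more below WT 1 to WT 3; Lce1a2 was the other Lce1 gene in which these arrays did not overlap, with a margin of 0.08. With all arrays the difference was -1.04 ± 0.58 (SE) (limma adjusted p = 0.678).

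Lce1k had the largest SD after removing group means of all 48 genes, 2.09. It read 3.69, 3.72, 2.22, 4.02 and -2.17 on the 5 KO arrays and 3.92, 2.59, 4.43 and 2.08 on the 4 WT arrays. Apart from KO 5, the KO arrays spanned nearly the same range as the WT arrays. Its difference was -0.96 ± 1.18 (SE).

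For Lce1b the levels were 5.28, 4.96, 4.65, 5.34 and 0.94 on the 5 KO arrays and 5.48, 5.10, 5.87 and 4.19 on the 4 WT arrays. Those of Lce1c were 5.94, 5.78, 5.68, 6.58 and 2.99 on the 5 KO arrays and 6.86, 6.22, 6.94 and 5.03 on the 4 WT arrays. Lce1d read 6.84, 6.67, 6.41, 7.13 and 4.17 on the 5 KO arrays and 7.42, 6.91, 7.57 and 6.25 on the 4 WT arrays. In these 3 genes KO 5 was the lowest of all arrays and KO 1 to KO 4 overlapped the WT range. Lce1g gave 4.34, 3.93, 4.10, 4.70 and 1.72 on the 5 KO arrays and 4.77, 4.36, 5.35 and 4.06 on the 4 WT arrays. On the Lce1h probe the levels were 4.56, 4.33, 4.02, 4.89 and 1.16 on the 5 KO arrays and 5.03, 4.32, 5.33 and 3.81 on the 4 WT arrays. The Lce1i probe read 6.12, 5.99, 5.63, 6.69 and 3.00 on the 5 KO arrays and 6.82, 5.86, 7.08 and 5.36 on the 4 WT arrays. Again KO 5 stood below every other array, and WT 4 was the lowest WT array of each. Lce1l read 3.11, 2.71, 2.31, 3.00 and -0.57 on the 5 KO arrays and 3.74, 2.76, 3.61 and 2.22 on the 4 WT arrays. Lce1a2 had levels of 7.68, 7.50, 7.15, 7.69 and 5.13 on the 5 KO arrays and 8.07, 7.77, 8.03 and 7.03 on the 4 WT arrays. The remaining Lce1 genes, Lce1a1, Lce1e and Lce1f, had differences of -0.81, -1.03 and -1.75, and their lowest array was KO 5 as well.

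**Figure D2:**
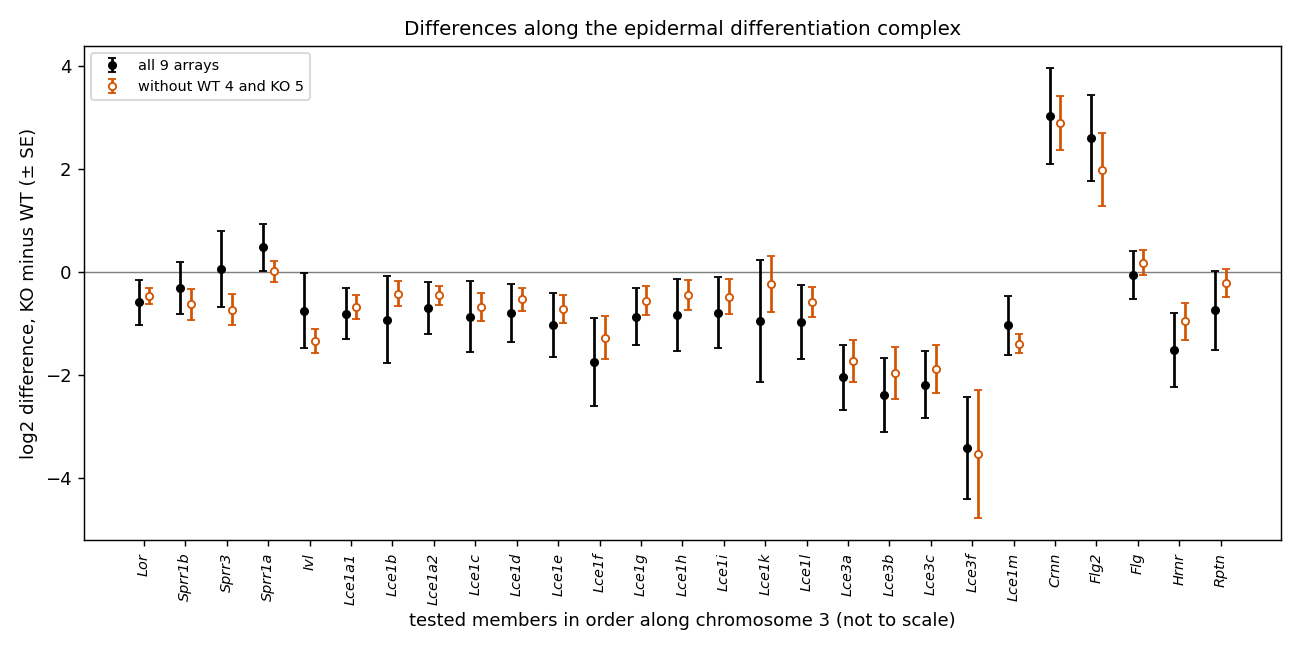
KO minus WT difference on the log2 scale (± SE from limma) of the 27 tested members on chromosome 3, in their order along the chromosome, with all 9 arrays (black) and without WT 4 and KO 5 (orange). All 17 Lce genes lie below 0 in both, the 4 Lce3 genes lowest, and the next 2 members after Lce1m, Crnn and Flg2, lie above it.

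The S100-fused-type proteins carry an S100 calcium-binding domain before long repeats and include filaggrin, which bundles keratin filaments. Of these 5 genes on chromosome 3, 0 passed the adjusted threshold; Crnn and Flg2 were higher in KO at an unadjusted p under 0.05, and Flg, Hrnr and Rptn had negative differences.

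Crnn (cornulin, a squamous differentiation protein abundant in the oesophagus; probe at chr3:92953334-92953393, mm9) read 2.92, 2.49, 3.26, 2.01 and -0.49 on the 5 KO arrays and -0.98, 1.14, -0.81 and -3.28 on the 4 WT arrays. KO 1 to KO 4 lay above all WT arrays, while KO 5 lay below WT 2, which was itself 1.95 above the next WT array. The means were 2.03 ± 1.49 in KO against -0.98 ± 1.81 in WT (mean ± SD), an 8.1-fold higher signal in KO (difference 3.02 ± 0.93 (SE), limma adjusted p = 0.384; exact two-sided permutation p = 0.0318). Within slide 1 the difference was 2.80 and within slide 4 it was 2.41.

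Flg2 (filaggrin-2, an S100-fused-type relative of filaggrin; chr3:93024641-93024700) read 0.16, -0.05, 1.21, -0.03 and -0.57 on the 5 KO arrays and -1.91, 0.12, -3.20 and -4.86 on the 4 WT arrays. On WT 4 the probe was not well above background, so that value is only a bound from above. WT 2 lay among the KO arrays and the other 3 WT arrays lay below all of them. The difference was 2.60 ± 0.83 (SE) (limma adjusted p = 0.409), 3.73 within slide 1, which holds WT 4, and 0.84 within slide 4.

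Flg (filaggrin; chr3:93083694-93083753) read 6.89, 6.51, 6.24, 5.95 and 4.28 on the 5 KO arrays and 6.26, 5.99, 6.42 and 5.47 on the 4 WT arrays. The groups overlapped widely, with KO 1 the highest array and KO 5 the lowest. The difference was -0.06 ± 0.47 (SE) (limma adjusted p = 0.989), and its sign turned under other scalings: it was 0.0066 after scaling on the median and 0.011 after normexp background correction.

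Hrnr (hornerin, a filaggrin-like repeat protein; chr3:93127620-93127679) read 4.41, 3.52, 2.87, 3.26 and 0.09 on the 5 KO arrays and 4.16, 4.32, 4.94 and 3.98 on the 4 WT arrays. KO 2 to KO 5 lay below all WT arrays and KO 1 lay among them. Its difference was -1.52 ± 0.72 (SE) (limma adjusted p = 0.601). Rptn (repetin, an envelope precursor) read 3.98, 3.96, 4.60, 4.90 and 0.64 on the 5 KO arrays and 4.82, 4.57, 4.33 and 3.74 on the 4 WT arrays. KO 5 alone was far below the rest. The Rptn difference was -0.75 ± 0.76 (SE).

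The promoters of 4 of these chromosome 3 genes are shown because Lce3f and Lce3c lay among the largest negative differences and Crnn and Flg2 were the 2 largest positive ones. Each is the 250 bases before the gene's start in RefSeq, GRCm38.p6, read 5′ to 3′ on the gene's strand. The AP-1 site itself has C or G as its middle base. Capitals mark matches on either strand to TTGCNNAA, a simple form of the C/EBP site, or to TGANTCA, a loose form of the AP-1 site:
Lce3f (chr3:92991967-92992216, plus strand): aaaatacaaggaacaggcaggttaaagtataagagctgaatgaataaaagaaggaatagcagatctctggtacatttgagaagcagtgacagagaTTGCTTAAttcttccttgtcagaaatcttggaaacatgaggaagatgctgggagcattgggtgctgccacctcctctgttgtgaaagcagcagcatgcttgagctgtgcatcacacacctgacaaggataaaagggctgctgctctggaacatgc
Lce3c (chr3:92944236-92944485, plus strand): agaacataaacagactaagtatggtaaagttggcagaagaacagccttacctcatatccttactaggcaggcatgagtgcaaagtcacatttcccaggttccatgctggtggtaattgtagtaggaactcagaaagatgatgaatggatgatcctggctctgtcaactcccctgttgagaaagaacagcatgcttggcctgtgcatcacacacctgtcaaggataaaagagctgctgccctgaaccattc
Crnn (chr3:93144539-93144788, plus strand): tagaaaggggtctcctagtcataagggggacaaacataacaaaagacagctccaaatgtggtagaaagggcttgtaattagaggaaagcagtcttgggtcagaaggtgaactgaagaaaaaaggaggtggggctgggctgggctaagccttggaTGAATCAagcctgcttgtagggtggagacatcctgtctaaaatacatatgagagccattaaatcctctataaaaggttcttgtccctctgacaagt
Flg2 (chr3:93197023-93197272, plus strand): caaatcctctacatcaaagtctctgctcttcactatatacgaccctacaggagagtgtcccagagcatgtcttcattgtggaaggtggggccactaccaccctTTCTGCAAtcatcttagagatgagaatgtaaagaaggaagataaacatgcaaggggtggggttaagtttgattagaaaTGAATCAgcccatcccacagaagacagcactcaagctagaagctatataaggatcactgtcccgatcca
The Lce3f window held a C/EBP match that began 155 bases before the start, and the Lce3c window held no match to either motif. Crnn had a TGANTCA match at 96 bases before the start. Flg2 had a C/EBP match at 147 bases and a TGANTCA match at 69 bases before its start. Both TGANTCA matches read TGAATCA, with A as the middle base. The longest run shared by the Lce3f and Lce3c promoters was ctgtgcatcacacacctg (18 bases, beginning 52 bases before both starts). It was present in the promoters of 3 of 27025 genes. Lce3f and Lce3c are 2 of these by the way the run was chosen, and no other member held it.

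Of the 49 genes, 43 had a promoter in RefSeq. TTGCNNAA occurred in 9 of these 43 (Cdsn, Dmkn, Flg, Flg2, Hrnr, Lce3f, Lypd3, Sbsn and Tgm3) and in 10.8% of all genes. TGANTCA occurred in 11 of 43 (Crnn, Dmkn, Flg, Flg2, Ivl, Krtdap, Lor, Rptn, Sbsn, Sprr1a and Sprr1b) and in 7.82% of all genes. TTGCGCAA, the palindromic C/EBP site and a special case of TTGCNNAA, occurred in 0 of 43 and in 0.185% of all genes. A match is a run of letters in this window and does not show binding. The TGANTCA counts include matches with A or T in the middle, which are not the AP-1 site itself.

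**Figure D3:**
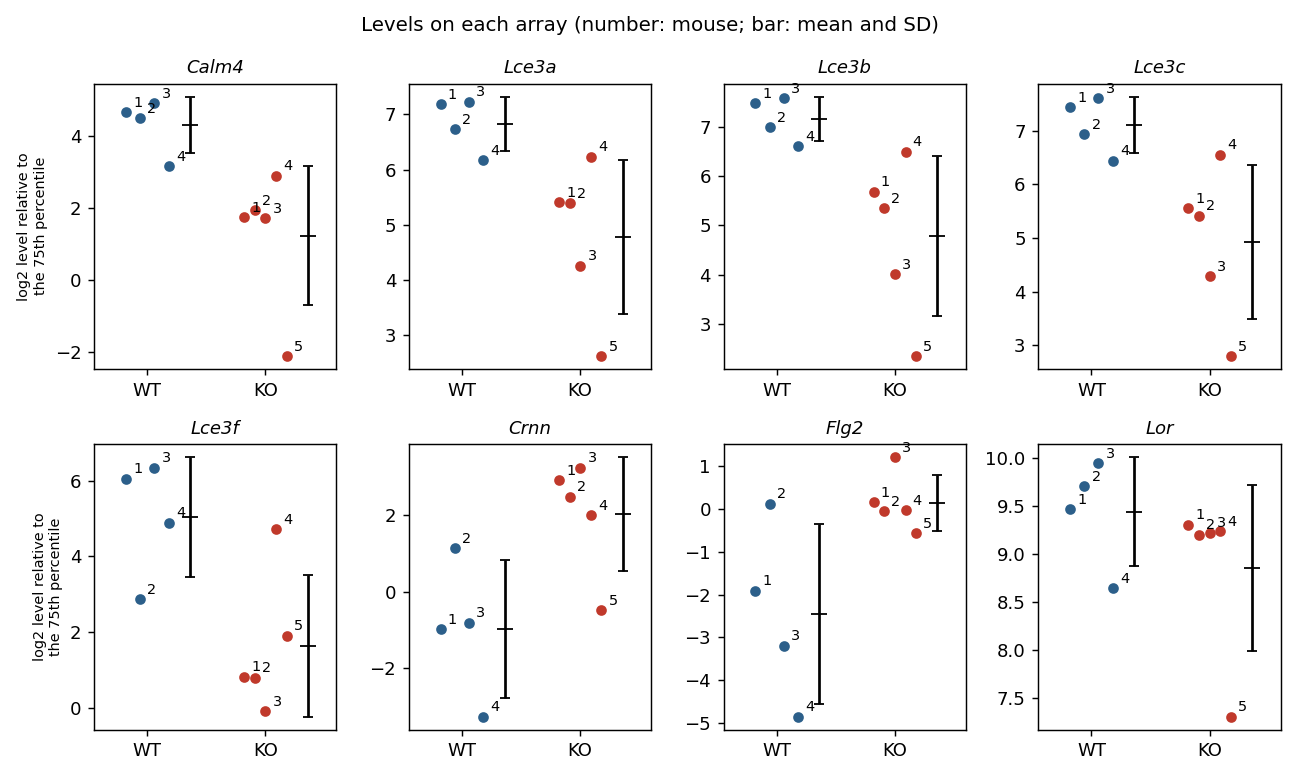
Log2 level relative to the array's 75th percentile of 8 cornified envelope genes on each array (points, numbered by mouse; WT blue, KO red), with mean and SD (bars, n = 4 WT and 5 KO). At this scaling Calm4 and Lce3b show no overlap between the groups, and KO 4 reaches the WT range for Lce3a, Lce3c and Lce3f. KO 5 and WT 4 are the lowest of their groups for Lor, Calm4 and Crnn.

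Loricrin, involucrin, envoplakin and cornifelin, the main precursors, had differences between -0.75 and -0.14, all lower in KO, and 0 of the 4 passed the threshold at either an adjusted or an unadjusted p.

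Lor (loricrin, the major protein of the envelope; chr3:91884206-91884265) read 9.30, 9.20, 9.22, 9.24 and 7.31 on the 5 KO arrays and 9.47, 9.71, 9.95 and 8.65 on the 4 WT arrays. KO 1 to KO 4 spanned 0.10, below WT 1 to WT 3 and above WT 4, and KO 5 stood below every array. The means were 8.85 ± 0.87 in KO against 9.44 ± 0.56 in WT (mean ± SD) (difference -0.59 ± 0.44 (SE), limma adjusted p = 0.792).

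Ivl (involucrin, an early scaffold precursor; chr3:92375367-92375426) read -0.91, -1.02, -1.21, -0.36 and -2.34 on the 5 KO arrays and 0.42, 0.29, 0.70 and -3.06 on the 4 WT arrays. KO 1 to KO 4 lay below WT 1 to WT 3, and WT 4 was the lowest of all 9 arrays. The difference was -0.75 ± 0.73 (SE) (limma adjusted p = 0.856), with a second Ivl probe at -0.68.

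Evpl (envoplakin, which anchors keratin filaments to the envelope) read 6.42, 6.45, 6.71, 6.13 and 5.55 on the 5 KO arrays and 6.83, 6.92, 6.90 and 5.43 on the 4 WT arrays. Cnfn (cornifelin, an envelope component) read 8.19, 7.92, 8.28, 7.80 and 7.29 on the 5 KO arrays and 7.95, 8.34, 8.31 and 7.55 on the 4 WT arrays. In both genes KO 5 and WT 4 were the lowest arrays. Of the remaining arrays, KO 1 to KO 4 lay below WT 1 to WT 3 for Evpl and overlapped them for Cnfn. The residual SD of Cnfn, 0.38, was among the 3 smallest.

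The small proline-rich proteins, which bridge other precursors, had differences of 0.48 (Sprr1a), -0.31 (Sprr1b) and 0.06 (Sprr3), with 0 of 3 past the threshold. Sprr3 read 5.17, 5.80, 6.51, 6.17 and 5.24 on the 5 KO arrays and 6.50, 6.70, 6.73 and 2.95 on the 4 WT arrays. WT 4 was 2.22 or more below every other array, KO 5 included, and the sign of the difference turned negative (-0.87) without WT 4. Sprr1a ranged from 6.54 to 7.25 on KO arrays and from 4.75 to 7.34 on WT arrays, and its difference was -0.079 without WT 4.

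Transglutaminases form the bonds between envelope precursors. The 3 genes had differences between -0.43 and 0.38, and 0 passed the threshold. Tgm1, the membrane-bound enzyme of keratinocytes, read 3.04, 2.94, 3.31, 3.05 and 2.33 on the 5 KO arrays and 3.58, 3.27, 3.25 and 2.38 on the 4 WT arrays. Its difference was -0.19 ± 0.27 (SE) (limma adjusted p = 0.923). Tgm3, an enzyme of the terminal stage, read 0.44, 0.45, 0.91, 0.99 and 0.95 on the 5 KO arrays and 0.70, 1.22, 1.85 and 0.93 on the 4 WT arrays, a narrow range with a residual SD of 0.39. A second Tgm3 probe disagreed in size, with a difference of -1.1 against -0.43 and with low values on KO 5 (-1.50) and WT 4 (-2.08) that the main probe did not show. Tgm5 had a difference of 0.38 ± 0.31 (SE), and of -0.095 within slide 1.

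Among the genes of cell adhesion in the cornified layer and of its proteolysis, 5 of 6 had lower means in KO and 0 passed the threshold. Spink5 (the inhibitor of kallikreins in the outer epidermis) read 3.21, 3.18, 3.39, 3.63 and 2.15 on the 5 KO arrays and 5.08, 4.73, 4.75 and 2.36 on the 4 WT arrays. KO 1 to KO 4 lay 1.1 or more below WT 1 to WT 3, and WT 4 lay below all of KO 1 to KO 4. Its difference was -1.12 ± 0.53 (SE) (limma adjusted p = 0.604).

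Klk7 (a kallikrein protease that cleaves corneodesmosomes) read -0.33, -0.75, -0.64, -0.06 and -4.84 on the 5 KO arrays and 0.67, 0.23, 0.67 and -2.52 on the 4 WT arrays. On KO 5 the probe was not well above background, so that value is only a bound from above. The difference was -1.09 ± 1.02 (SE), and the residual SD of 1.81 was among the 3 largest. Klk5 (its activating relative) had a difference of 0.24 ± 0.74 (SE), which was -0.49 without WT 4, and Casp14 (a caspase that processes filaggrin) one of -1.37 ± 0.65 (SE).

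Asprv1 (a protease that cleaves profilaggrin) read 7.75, 7.80, 7.67, 7.57 and 6.61 on the 5 KO arrays and 7.81, 7.92, 7.81 and 6.42 on the 4 WT arrays. Cdsn (corneodesmosin, the adhesive protein of corneodesmosomes) read 5.37, 5.09, 5.59, 5.14 and 4.57 on the 5 KO arrays and 5.56, 5.75, 5.61 and 4.90 on the 4 WT arrays. Their differences were -0.01 ± 0.36 (SE) and -0.30 ± 0.24 (SE). For Asprv1 the sign turned under median scaling (0.057), quantile normalization (0.016) and normexp (0.023). The residual SD of Cdsn, 0.38, was the smallest of the 48 genes.

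The lipid genes supply the envelope's lipid coat. Abca12 (a lipid transporter of lamellar granules) read 0.72, 0.77, 0.90, 1.08 and -0.69 on the 5 KO arrays and 2.30, 2.17, 2.21 and -0.18 on the 4 WT arrays. As for Spink5, KO 1 to KO 4 lay together below WT 1 to WT 3, and WT 4 and KO 5 lay lower still. The difference was -1.07 ± 0.55 (SE) (limma adjusted p = 0.642). Alox12b (12R-lipoxygenase, which oxidises the lipids to be attached) read 3.77, 3.86, 4.24, 3.93 and 3.02 on the 5 KO arrays and 3.72, 3.97, 4.02 and 1.55 on the 4 WT arrays. Aloxe3 (the lipoxygenase acting after it) read 2.66, 2.80, 2.77, 2.63 and 1.57 on the 5 KO arrays and 3.01, 2.92, 3.47 and 1.80 on the 4 WT arrays. Their differences were 0.45 ± 0.49 (SE) and -0.31 ± 0.36 (SE), and 0 of the 3 genes passed the threshold. Without WT 4 the Alox12b difference was -0.14.

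Of the calcium sensors, Calm4 (a calmodulin-like protein of differentiating keratinocytes; chr13:3837682-3837741, mm9) had the smallest limma p of all 48 genes. It read 1.74, 1.93, 1.72, 2.89 and -2.11 on the 5 KO arrays and 4.66, 4.48, 4.91 and 3.15 on the 4 WT arrays. No KO array reached the WT range, although KO 4 lay only 0.26 below WT 4, and KO 5 was 3.83 below the next KO array. With median scaling and with normexp background correction the groups overlapped. The means were 1.23 ± 1.93 in KO against 4.30 ± 0.79 in WT (mean ± SD), an 8.38-fold lower signal in KO. The Calm4 difference was -3.07 ± 0.88 (SE) (limma adjusted p = 0.337, exact two-sided permutation p = 0.0159). Within slide 1 the difference was -3.64 and within slide 4 it was -2.64. The neighbouring family member Calml3 had a difference of -0.03 ± 0.34 (SE), whose sign turned with median scaling (0.033), normexp (0.017) and without KO 5 (0.083).

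The secreted and surface proteins of squamous cells had differences between -0.60 and 0.16, with 0 of 5 past the threshold. Krtdap (a secreted protein of differentiating keratinocytes) read 6.26, 6.64, 7.19, 7.42 and 5.72 on the 5 KO arrays and 8.11, 7.89, 8.29 and 4.63 on the 4 WT arrays. Dmkn (dermokine) read 7.32, 7.59, 7.71, 7.49 and 6.82 on the 5 KO arrays and 8.27, 8.44, 8.42 and 6.83 on the 4 WT arrays. Sbsn (suprabasin) read 6.56, 6.49, 6.53, 6.38 and 5.39 on the 5 KO arrays and 7.10, 7.01, 7.05 and 5.61 on the 4 WT arrays. Lypd3 (a GPI-anchored surface protein) read 5.66, 5.83, 6.12, 5.57 and 5.10 on the 5 KO arrays and 6.39, 6.39, 6.41 and 4.92 on the 4 WT arrays. These 4 genes shared one order, with WT 1 to WT 3 highest, KO 1 to KO 4 next, and KO 5 and WT 4 lowest; Evpl, Ivl, Spink5 and Abca12 were among the other genes in that order. Ly6d (a small surface protein of squamous cells) read 6.88, 7.04, 7.00, 6.97 and 6.50 on the 5 KO arrays and 7.05, 7.01, 6.93 and 5.88 on the 4 WT arrays. The differences were -0.58 ± 0.71 (SE) for Krtdap, -0.60 ± 0.34 (SE) for Dmkn and 0.16 ± 0.25 (SE) for Ly6d.

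The values varied more within groups than those of most genes. The median residual SD of the 48 genes was 0.99, against 0.35 over all genes tested, and 3.38% of all genes exceeded that median. It was 1.21 for the 27 genes on chromosome 3 and 0.60 for the 21 on other chromosomes, and 0.38 for the squamous basal cell markers. WT 4 was the lowest WT array for 46 of 48 genes, where it was the lowest for 35.6% of all genes, and KO 5 was the lowest KO array for 44 of 48, against 15.7% of all genes.

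WT 4 and KO 5 were both low for most of these genes, by amounts that differed between gene groups. Relative to the WT mean, the median of the chromosome 3 genes was -3.14 on KO 5 and -0.86 on WT 4, and that of the genes on other chromosomes was -0.98 on KO 5 and -1.11 on WT 4. KO 5 lay below WT 4 for all 17 Lce genes and for 15 of the 31 other genes, while for the Sprr genes the medians were -0.48 on KO 5 and -1.67 on WT 4. Krt4 and Krt13, the keratins of oesophagus-like squamous cells, were low on WT 4 (1.96 and 4.05) but not on KO 5 (4.96 and 6.51). Krt1 and Krt10, the keratins of epidermis-like cells, were low on both (2.30 and 3.18 on WT 4, 0.72 and 2.13 on KO 5). The mean level of the basal cell markers was 3.27 on WT 4 and 3.31 on KO 5, the first the lowest of the WT arrays and the second inside the range of the other KO arrays. The glandular markers had a mean level of 4.65 on WT 4, the highest WT array, and 5.06 on KO 5; the part of any of these in the results was not tested.

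**Figure D4:**
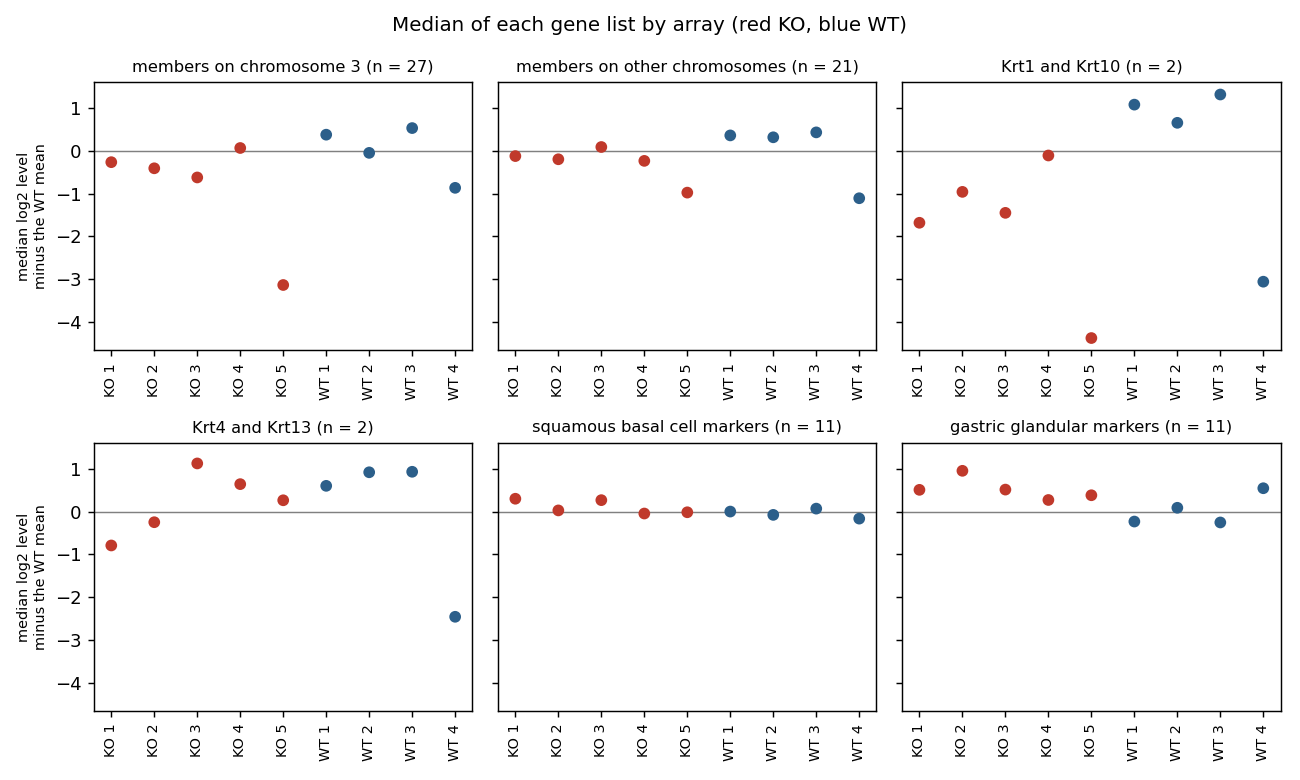
Median log2 level, relative to the WT mean of each gene, of 6 gene lists on the 9 arrays (KO red, WT blue). KO 5 is lowest for the members on chromosome 3 (-3.14), WT 4 is lowest for the members on other chromosomes (-1.11) and for Krt4 and Krt13 (-2.46), and the basal cell markers stay between -0.16 and 0.30.

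Without WT 4 and KO 5, which were left out because they were the lowest arrays for these very genes, 5 of 48 genes passed the adjusted threshold, all lower in KO, against 0.359% of all genes: Abca12 (-1.36, limma adjusted p = 0.0113), Calm4 (-2.62, 0.0114), Spink5 (-1.50, 0.0131), Lce1m (-1.39, 0.0230) and Ivl (-1.34, 0.0462). At an unadjusted p under 0.05, 26 were lower, against 7.02% of all genes, and 2, Crnn and Flg2, were higher, against 6.51%. All 4 remaining KO arrays lay below all 3 remaining WT arrays for 19 genes, against 7.05%, and above them for Crnn alone, against 6.69%. Crnn had a difference of 2.89 (limma adjusted p = 0.0588) and Flg2 one of 1.98, the 4 Lce3 genes had differences from -3.53 to -1.73, and Hrnr one of -0.96. Since the choice of arrays used the levels of these genes, the counts describe the remaining 7 arrays and are no independent test. Leaving out WT 4 alone left Spink5 past the threshold (-1.74, limma adjusted p = 0.0449), against 0.318% of all genes lower past it. Leaving out KO 5 alone left 0 genes past it, against 0.189%, with 8 at an unadjusted limma p under 0.05, against 6.51%.

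Of 71 other genes of cornification, 66 were tested, 44 with lower and 22 with higher means in KO, where 49.1% of all genes were lower. The adjusted threshold was passed by 1, the targeted gene Cebpb, against 0.203% of all genes. Its call comes with the KO and is no result about this list. The median difference was -0.19. Without WT 4 it was -0.52, with 55 lower and 11 higher, and without both WT 4 and KO 5 it was -0.38, with 53 and 13. Of all 21722 genes, 9912 were lower without WT 4 and 10115 without both. Among 21 other envelope genes, Serpinb12 (a serpin of squamous epithelium) had a difference of -1.69 ± 0.71 (SE), Serpinb3a one of -1.38 ± 0.63 (SE), Krt10 one of -1.61 ± 0.90 (SE) and Pglyrp3 (a peptidoglycan-binding protein) one of 0.70 ± 0.41 (SE). Krt10 read 4.45, 4.87, 4.76, 5.63 and 2.13 on the 5 KO arrays and 7.06, 6.58, 7.08 and 3.18 on the 4 WT arrays. Among 29 barrier lipid and protease genes, Blmh (bleomycin hydrolase, which degrades filaggrin peptides) read 2.28, 2.82, 2.58, 2.76 and 2.31 on the 5 KO arrays and 3.68, 3.74, 3.59 and 2.49 on the 4 WT arrays, a difference of -0.82 ± 0.27 (SE) (limma adjusted p = 0.412). Smpd1 (acid sphingomyelinase), Klk9 and Degs2 (a sphingolipid desaturase) had differences of -0.77, -0.99 and 0.44. Among 16 regulators, after Cebpb, Tfap2c (an AP-2 factor) had a difference of -0.59 ± 0.21 (SE), Maf one of 0.48 ± 0.20 (SE) and Ovol1 (a zinc finger factor of epithelial differentiation) one of -0.90 ± 0.37 (SE). Ovol1 (limma adjusted p = 0.525) read -0.42, -0.57, -1.90, -0.72 and -2.17 on the 5 KO arrays and -0.19, -0.17, -0.28 and -0.40 on the 4 WT arrays. All KO arrays lay below all WT arrays, as for 1.08% of all genes, but KO 1 (-0.418) was only just below WT 4 (-0.403). Without WT 4 and KO 5, 5 of the 66 passed the threshold, all lower, against 0.359% of all genes. They were the targeted gene Cebpb, Krt10 (-1.98), Blmh (-1.06), Sdr9c7 (-1.02) and Lipm (-1.14), the last pair named after their values were seen. These arrays were left out for their low levels of the cornified envelope genes, so this count is no independent test either.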

How the data were processed

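RNA of 9 whole newborn stomachs (5 KO, 4 WT) was hybridised to 1-colour Agilent arrays with 60-base probes, from 0.3 µg of RNA each, with oligo-dT priming and Cy3 label per the labels' protocols. The deposited scanner files hold the processed signal, a background-corrected intensity per spot, per the file headers, which name Feature Extraction 10.5.1.1; the submitters' processing notes name Agilent Feature Extraction 9.1. Outlier-flagged and control spots were dropped, spots of a probe averaged, and log2 of the deposited intensity was taken minus each array's 75th percentile over its non-control spots (221 to 472). The filter kept probes called well above background by the scanner software on 4 or more of the 9 arrays, with the highest-mean probe per gene, which gave 21722 genes. Array symbols were updated through RefSeq (26762 of 55681 probes matched, 2878 renamed). Probes without a match kept the array's own name, and each distinct name was counted as a gene in the shares over all genes.

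Differences came from limma 3.58.1 under R 4.3.3 (two-sided, lmFit followed by eBayes), checked on simulated data, with Benjamini-Hochberg adjustment over all genes and a threshold of 0.05. Single genes also had exact permutation tests over 126 splits. The authors' deposited log2 value table served as an alternative. For 99.71% of probes its differences between arrays matched the scanner values within 0.01 after a shift per array; its column medians run from -0.28 to 0.38, and the centring behind them is unknown. Depth does not apply to arrays, whose number limits the precision.

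The members, role groups, other lists and tests were chosen with earlier results of these data known. Values on every array are given for Lor, Ivl, Flg and Tgm1, the 8 smallest p, the 3 largest and 3 smallest residual SDs, and members with an outlying array; other lists name their 4 smallest p. The mouse numbers in the labels are those of separate mice and did not pair the samples: the correlations of same-numbered deviations were -0.30, 0.12, 0.15 and -0.48. Alternatives were another background correction, scaling, filter, probe rule and value table, slide, mouse number and Y-linked level in the fit, and arrays left out.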

Additional observations from a re-analysis of the deposited data

Results flagged for a closer look

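In 30 of the 96 groups examined (48 genes, KO and WT separately), the lowest array was farther from its nearest neighbour than Dixon's critical value allows; chance flags about 1 in 20 groups, and these genes vary together, so the flags are not independent. All 30 were low, 17 of them on KO 5 and 13 on WT 4. The median of the 48 genes relative to the WT mean was outlying as well, at -2.1 on KO 5.

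On KO 5 the outlying levels were those of the structural genes Lor (7.31) and Rptn (0.64), the calcium sensor Calm4 (-2.11) and the secreted protein Sbsn (5.39). Of the Lce1 genes, Lce1a2 (5.13), Lce1b (0.94), Lce1c (2.99), Lce1d (4.17), Lce1g (1.72), Lce1h (1.16), Lce1i (3.00), Lce1l (-0.57) and Lce1m (2.90) were outlying there. The enzymes and the transporter with an outlying level on KO 5 were Klk7 (-4.84, not well above background), Asprv1 (6.61), Aloxe3 (1.57) and Abca12 (-0.69).

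On WT 4 the outlying levels included the precursors Ivl (-3.06), Evpl (5.43) and Sprr3 (2.95) and the secreted and surface proteins Krtdap (4.63), Dmkn (6.83), Sbsn (5.61), Ly6d (5.88) and Lypd3 (4.92). The protease genes Klk7 (-2.52), Asprv1 (6.42) and Spink5 (2.36) and the lipid genes Alox12b (1.55) and Abca12 (-0.18) were outlying there too. No Lce gene was outlying on WT 4, and 9 of 17 were on KO 5.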

How the results depend on the processing

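Under 22 alternatives the median difference of the tested members stayed negative, from -1.02 (without WT 4) to -0.14 (Y-linked level as a covariate). With the replicate block (mouse number), 0 members passed the threshold and the median difference was -0.21; KO 5 is alone in its block, so this fit's differences equal those without KO 5, and it called 4 of all genes against 44. With slide as a block 5 of all genes were called, with the Y-linked level 4, without any filter 22, without WT 4 and KO 5 159, and with single arrays left out 11 (WT 1) to 161 (WT 4). The count of members called was 5 without WT 4 and KO 5 and ranged from 0 to 1 with single arrays left out; that at an unadjusted p under 0.05 was 28, and 7 to 19. Members with groups that do not overlap numbered 0 with normexp, 0 with median scaling, 1 with quantile normalization, 20 without WT 4 and KO 5, and 2 to 19 with single arrays left out (5 without KO 4 and 5 without WT 2). These counts rose over all genes too. Without WT 4, 1783 of all 21722 genes were lower and 1731 higher at that unadjusted p, and 1393 lay wholly below and 1280 wholly above. Without WT 4 and KO 5 the shares of all genes were 7.02% and 6.51% at that p, and 7.05% and 6.69% without overlap. Other cornification genes called were 5 without WT 4 and KO 5, and 1 to 2 with single arrays left out, Blmh being added without WT 4.

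Of the 48 tested members the sign turned for 18 in at least 1 alternative, none of which passed the threshold in the fit to all arrays. With the Y-linked level it turned positive for Asprv1 (0.27), Calml3 (0.13), Cdsn (0.033), Cnfn (0.21), Evpl (0.071), Flg (0.65), Lce1b (0.013), Lce1k (0.031), Rptn (0.083), Sprr1b (0.023) and Tgm1 (0.064). Under the replicate block it did for Asprv1 (0.21), Calml3 (0.083), Cnfn (0.0071), Flg (0.36) and Lce1k (0.16). Asprv1 was at 0.023 with normexp, 0.057 with median scaling, 0.016 with quantile normalization and 0.0037 with the deposited value table, Calml3 at 0.017 with normexp and 0.033 with median scaling, and Flg at 0.011 with normexp, 0.0066 with median scaling and 0.17 without WT 4 and KO 5. Within slide 4 Flg (0.39), Lce1k (0.46) and Sprr3 (-0.80) turned, and within slide 1 Calml3 (0.11), Krtdap (0.11) and Tgm5 (-0.095). Without WT 4 and KO 5 Klk5 (-0.014), Ly6d (-0.022) and Sprr3 (-0.73) turned. With single arrays left out the difference ranged from -0.14 to 0.68 for Alox12b, -0.37 to 0.21 for Asprv1, -0.42 to 0.14 for Calml3, -0.31 to 0.0071 for Cnfn, -0.29 to 0.36 for Flg, -0.49 to 0.72 for Klk5, -1.39 to 0.16 for Lce1k, -0.12 to 0.27 for Ly6d, -0.079 to 0.78 for Sprr1a and -0.87 to 0.39 for Sprr3. The cause of these changes was not tested. Array number limits the precision.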
